A study of Mus musculus with 4 samples.

Results

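Kruppel-like factors are transcription factors with a C-terminal run of C2H2 zinc fingers that bind CACCC boxes and other GC-rich DNA. Here 10 genes of the family were followed, chosen by symbol from the 24442 genes in the deposited count table: Klf2, Klf3, Klf4, Klf5, Klf6, Klf7, Klf9, Klf10, Klf13 and Klf15. RNA had been sequenced from mammary gland cells of 5-week-old female Lgr6-eGFP-CreErt2 mice, in which a green fluorescent reporter and an inducible Cre recombinase are named for the Lgr6 gene. Cells of all 4 libraries carried this allele and came from a lineage-negative sort. Of these, 2 libraries held Lgr6-positive cells and 2 held Lgr6-negative cells. The labels list no drug treatment and do not say which lineage markers were used, how the Lgr6-negative gate was set, or whether the replicates were separate or pooled animals. The p-values therefore measure only the spread between these libraries, which may be technical.

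As background, members of this family act in different cells of the gland. Klf5 promotes proliferation in many epithelia, Klf4 takes part in epithelial barrier formation and in monocyte differentiation, and Klf2 maintains quiescence of lymphocytes and the flow response of endothelium. Klf3 is a repressor that recruits C-terminal binding proteins, Klf9 and Klf15 respond to glucocorticoids, and Klf10 was first described as an early gene of TGF-beta signalling.

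Total counts lay between 6819127 and 7167465 per library, and a floor of 3 counts corresponded to 0.368 to 0.533 CPM (counts scaled by TMM factors to a common library size). The share of counts from Rn45s, the ribosomal RNA precursor, was 17.2% and 14.5% in Lgr6-positive and 18.7% and 30.8% in Lgr6-negative libraries, highest in Lgr6-negative replicate 2. Its TMM-scaled level was lower in Lgr6-positive libraries by edgeR (log2 -1.13, SE 0.24, adjusted p = 0.0225), under 10 of 12 alternative settings too. Input RNA had integrity numbers of 5 to 8 and was amplified over 18 PCR cycles. Lgr6, the gene that defines the sort, counted 172 and 655 in Lgr6-positive against 3 and 10 in Lgr6-negative libraries, with a log2 fold change of 5.52 (SE 1.47) and an edgeR adjusted p of 0.0510. The 6 leukocyte markers, Ptprc, Lyz2, Cd74, Spi1, Itgam and Plek, were all lower in Lgr6-positive libraries, where their summed level was 1605 and 1962 CPM against 27058 and 28884 CPM. All 7 epithelial markers were higher, with sums of 4529 and 4514 against 179 and 188 CPM, and so were all 5 endothelial markers, with sums of 1299 and 1621 against 150 and 121 CPM. Of 5 fibroblast markers 3 passed as higher by edgeR at an adjusted p under 0.05 (sums 745 and 531 against 26.1 and 70.2 CPM). Of 5 red-cell markers 4 passed (651 and 598 against 18.4 and 3.91 CPM). In both lists all 5 lay higher in both Lgr6-positive libraries than in either Lgr6-negative library, beside 30.0% of all tested genes. Of 5 adipocyte markers 2 were tested, which both lay higher in the same way, and 1, Lpl, passed (563 and 553 against 45.2 and 63.6 CPM for the 5). Pdgfra, Hba-a2, Hbb-bs, Adipoq, Plin1 and Cfd had no counts in either Lgr6-negative library. The populations thus differed in the markers of several cell types, and in bulk RNA fewer cells of a type and less RNA per cell cannot be told apart. The part of these cell types in the results below was not tested.

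Because the zinc fingers are conserved between members, the transcripts were first checked for stretches that could carry a read from 1 gene to another. The longest run shared by the longest annotated transcripts of any of the 45 pairs of members was 26 bases, in coding sequence of Klf6 and Klf7, followed by 24 bases in coding sequence of Klf5 and Klf9. Both are shown as the longest exact runs, and reads were 50 bases long. Similar stretches that differ at some bases were not examined, so confusion between members is not bounded by these runs.
Klf6 and Klf7: gacaggtgtttctccaggtctgacca
Klf5 and Klf9: tcggatgagctgacccgccactac
No stretch of 50 bases was therefore common to the longest transcripts of any pair. Against all annotated transcripts, Klf2, Klf6, Klf9, Klf10 and Klf15 shared no 50-base stretch with another gene. The largest share was in Klf7, where 38.2% of such stretches are also present on the opposite strand in Gm26649. In exon terms 39.4% of Klf7 and 3.59% of Klf3 lie in genes on the opposite strand. These opposite-strand genes, Gm26649 and Gm13748 for Klf7 and Gm20033 for Klf3, had no entry of their own among the deposited counts. The strand setting of the counting is not given in the sources used here, so reads of Klf7 and its antisense partners cannot be told apart.

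The upstream DNA of members was examined for motifs, since Klf2 and Klf4 are both known targets of the ERK5 kinase and MEF2 factors. RefSeq promoter sequences (GRCm38.p6) were matched for 8 of the 10 members, all except Klf5 and Klf10, and the 250 bases before the start site were searched on both strands for CACCC, the family's own box, for GGGCGG, the GC box, and for the MEF2 motif. The sequences of Klf2, Klf4 and Klf6 are shown because Klf2 held the MEF2 match, Klf4 shares the known ERK5 and MEF2 route and Klf6 was the most abundant member, with CACCC boxes (GGGTG where the box is on the other strand) and the MEF2 match in capitals. Klf2 lies at chr8:72318812-72319061 on the plus strand, Klf4 at chr4:55532476-55532725 on the minus strand and Klf6 at chr13:5861239-5861488 on the plus strand.
Klf2: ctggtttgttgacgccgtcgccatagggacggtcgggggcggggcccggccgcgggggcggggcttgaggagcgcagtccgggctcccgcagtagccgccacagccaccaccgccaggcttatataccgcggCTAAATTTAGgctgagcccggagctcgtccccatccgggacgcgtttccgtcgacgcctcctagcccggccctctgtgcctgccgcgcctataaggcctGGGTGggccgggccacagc
Klf4: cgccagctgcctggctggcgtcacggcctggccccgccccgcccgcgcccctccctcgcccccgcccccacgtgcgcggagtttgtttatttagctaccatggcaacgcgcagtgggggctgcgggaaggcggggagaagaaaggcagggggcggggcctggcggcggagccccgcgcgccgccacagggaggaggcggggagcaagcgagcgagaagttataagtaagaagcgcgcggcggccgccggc
Klf6: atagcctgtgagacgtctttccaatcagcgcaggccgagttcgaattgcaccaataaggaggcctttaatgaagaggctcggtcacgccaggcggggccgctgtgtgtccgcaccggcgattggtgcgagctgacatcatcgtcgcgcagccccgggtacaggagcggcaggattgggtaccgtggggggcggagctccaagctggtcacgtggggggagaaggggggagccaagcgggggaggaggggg
The Klf2 sequence held 1 MEF2 match, 1 CACCC box and 2 GC boxes. The Klf4 sequence held no CACCC box, no MEF2 match and 4 GC boxes, and that of Klf6 held only 1 GC box. Of 32851 promoters of the same length, 2.92% held the MEF2 motif, 52.0% a CACCC box and 32.7% a GC box. Among the other matched members, Klf3 had the most boxes, with 5 CACCC and 6 GGGCGG matches, and GC content over the 8 sequences ran from 59.2% in Klf7 to 78.4% in Klf3. The windows are placed by the RefSeq start sites. By the gene positions of GENCODE M21, the Klf7 window lies wholly inside the gene. Those of Klf2, Klf3 and Klf6 reach into their genes, so not all of these bases are upstream. These matches are descriptions of the letters in the window.

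The comparison asked which family members differ between Lgr6-positive and Lgr6-negative cells. Klf5, Klf6, Klf7 and Klf9 lay higher in both Lgr6-positive libraries than in either Lgr6-negative library, and Klf2, Klf3, Klf4 and Klf13 lay lower. Klf10 overlapped between the populations, and Klf15 was barely detected. None of the differences passed the threshold: of 9 tested members, 0 had an adjusted p under 0.05 by edgeR (quasi-likelihood, Benjamini-Hochberg over all 11661 tested genes), where 9.06% of all tested genes did, 4.49% higher and 4.57% lower. At an unadjusted p under 0.05 there were 5 (Klf2, Klf3 and Klf4 lower, Klf5 and Klf6 higher), against 25.1% of all genes, 14.3% higher and 10.8% lower. DESeq2 called 3 members (Klf3 and Klf4 lower, Klf5 higher) where it called 20.6% of all genes, and limma-voom called 1 (Klf4) where it called 12.7%. Libraries that do not overlap were common, at 56.0% of all tested genes (30.0% higher, 25.9% lower) beside 8 of the 9 tested members (4 higher, 4 lower). The median log2 fold change of the 9 members was -0.37, beside 0.10 over all tested genes. Scaling by library size alone shifted the log2 fold changes of all genes by a median of 0.45, which changed the sign of Klf10 and let Klf13 overlap, while upper-quartile scaling left Klf10 without overlap. The other 8 tested members kept their sign under each scaling.

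**Figure D1:**
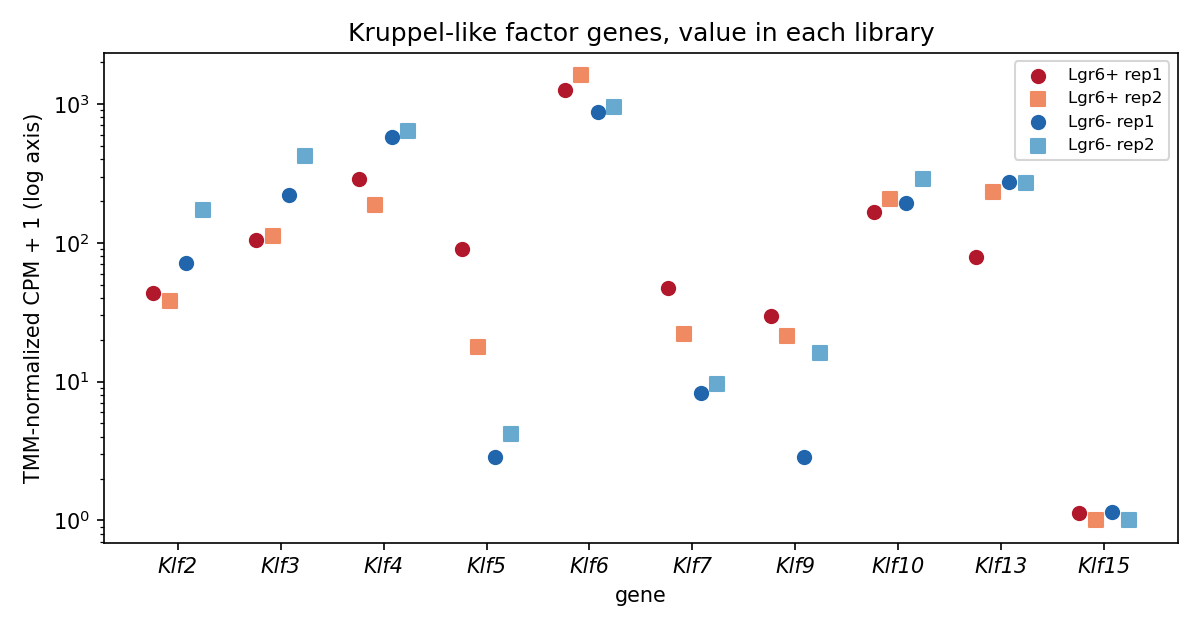
Level of each of the 10 genes in the 4 libraries, as TMM-normalized CPM plus 1 on a log axis, with Lgr6-positive libraries in red and orange and Lgr6-negative libraries in blues. Klf6 is the highest gene in every library, Klf5 shows the widest gap between populations, and Klf15 lies at the bottom.

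Klf5, on chromosome 14 of GRCm38 from 99298691 to 99315036, had the largest fold difference among the tested members. Its counts were 723 and 133 in Lgr6-positive and 12 and 18 in Lgr6-negative libraries, or 88.7 and 16.9 CPM against 1.87 and 3.20 CPM. Both Lgr6-positive libraries lay above both Lgr6-negative ones, but replicate 1 carried most of the Lgr6-positive signal. The means were 52.8 ± 50.8 and 2.54 ± 0.94 CPM (SD, n = 2 libraries each, as for all means), with a log2 fold change of 4.37 (SE 1.35, 95% interval 1.31 to 7.43) and an edgeR adjusted p of 0.0794. Without Lgr6-positive replicate 2 the gene passed (5.09, adjusted p = 0.00345), and without Lgr6-positive replicate 1 the value was 2.72 (adjusted p = 0.471). It also passed with no filter on low counts (adjusted p = 0.0240) and in DESeq2 (0.00154), within a range of 0.00154 to 0.471 over the 12 alternatives. Markers of epithelium (7 of 7), endothelium (5 of 5), fibroblasts (5 of 5) and red cells (5 of 5) moved in the same direction. Of these, 3 fibroblast and 4 red-cell markers passed, and all epithelial and endothelial ones did. In Lgr6-positive replicates 1 and 2, where Klf5 stood at 88.7 and 16.9 CPM, the epithelial sums were 4529 and 4514 CPM. The sums there were 1299 and 1621 CPM for endothelium, 745 and 531 CPM for fibroblasts, and 651 and 598 CPM for red cells. The part of any of these cell types in the Klf5 levels was not tested.

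Klf6, a widely expressed member on chromosome 13 from 5861482 to 5870394, was the most abundant of the 10 by CPM. Its level was 1262 and 1610 CPM in Lgr6-positive and 875 and 954 CPM in Lgr6-negative libraries. The populations did not overlap, and the gap was small beside that of Klf5: the log2 fold change was 0.65 (SE 0.27, 95% interval 0.04 to 1.26, adjusted p = 0.170). It passed only under scaling by library size among the 12 alternatives (1.10, adjusted p = 0.0389), and the highest adjusted p was 0.529.

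Klf7, which acts in neuronal development and adipogenesis, was at 46.5 and 21.0 CPM against 7.33 and 8.53 CPM. Both Lgr6-positive libraries were higher, but the log2 fold change of 2.09 (SE 1.23, 95% interval -0.69 to 4.86) had an adjusted p of 0.354, and the gene passed under none of the 12 alternatives. Klf9, a partner of progesterone receptor signalling, was at 28.7 and 20.3 CPM against 1.87 and 15.1 CPM. Here the Lgr6-negative libraries differed from each other more than the nearest libraries of the 2 populations did. The log2 fold change of Klf9 was 1.53 (SE 1.47, 95% interval -1.82 to 4.87, adjusted p = 0.615), at 0.68 without Lgr6-negative replicate 1 and 3.68 without Lgr6-negative replicate 2. The gene passed under no alternative.

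Klf4, on chromosome 4 from 55527143 to 55532466, was the member closest to the threshold. Its level was 286 and 187 CPM in Lgr6-positive libraries and 577 and 635 CPM in Lgr6-negative libraries. Both Lgr6-negative libraries lay above both Lgr6-positive libraries, and the spread within either population was smaller than the gap between them. The means of 237 ± 69.9 and 606 ± 41.0 CPM gave a log2 fold change of -1.36 (SE 0.37, 95% interval -2.20 to -0.51, adjusted p = 0.0562). Klf4 passed under 5 of 12 alternatives: no filter (0.0154), DESeq2 (0.0432), limma-voom (0.0265), the fit with the replicate number as a block (0.0379) and without Lgr6-positive replicate 1 (-1.70, 0.00556). Its highest adjusted p was 0.192, under scaling by library size, and its log2 fold change was -1.11 without Lgr6-positive replicate 2.

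Klf3, on chromosome 5 from 64803388 to 64832901, was at 103 and 110 CPM in Lgr6-positive libraries, which lay close together, and at 220 and 424 CPM in Lgr6-negative libraries, which did not. Its log2 fold change was -1.59 (SE 0.48, 95% interval -2.68 to -0.51, adjusted p = 0.0744). The gene passed under 5 of 12 alternatives, among them without Lgr6-negative replicate 1 (-2.005, adjusted p = 0.0200), without Lgr6-positive replicate 1 (0.0485) and without Lgr6-positive replicate 2 (0.0220). Without Lgr6-negative replicate 2 the value was -1.06, and the adjusted p was 0.476, the highest of its range.

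Klf2, on chromosome 8 from 72319033 to 72321656, was at 42.3 and 37.3 CPM against 69.9 and 171 CPM. The Lgr6-positive libraries lay close together and below both Lgr6-negative ones, of which replicate 2 was the higher. The log2 fold change of -1.60 (SE 0.70, 95% interval -3.19 to -0.005) had an adjusted p of 0.198 and passed under none of the 12 alternatives, with -0.83 without Lgr6-negative replicate 2. That library, where Klf2, Klf3, Klf4 and Klf10 were highest, also had the highest Rn45s share (30.8%), whose part in these values was not tested. The leukocyte markers, 6 of 6 lower, moved in the same direction as Klf2, Klf3 and Klf4, and the epithelial (7 of 7) and endothelial markers (5 of 5) moved in the opposite direction.

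Klf13, which was found as an activator of a chemokine gene in T cells, was at 77.7 and 232 CPM in Lgr6-positive and 271 and 270 CPM in Lgr6-negative libraries. Replicate 1 of the Lgr6-positive population stood apart, and the log2 fold change of -0.80 (SE 0.55, 95% interval -2.06 to 0.46, adjusted p = 0.443) became -1.82 without Lgr6-positive replicate 2, where it passed (0.0185), and -0.22 without Lgr6-positive replicate 1. Klf10 was at 165 and 205 CPM against 192 and 286 CPM, which overlap, with a log2 fold change of -0.37 (SE 0.44, 95% interval -1.37 to 0.63, adjusted p = 0.697). At this replication, any difference within that interval remains possible for Klf10. Klf15 had 1 and 0 counts in Lgr6-positive and 1 and 0 in Lgr6-negative libraries, which is under the floor of 3 counts, and no fold is given.

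**Figure D2:**
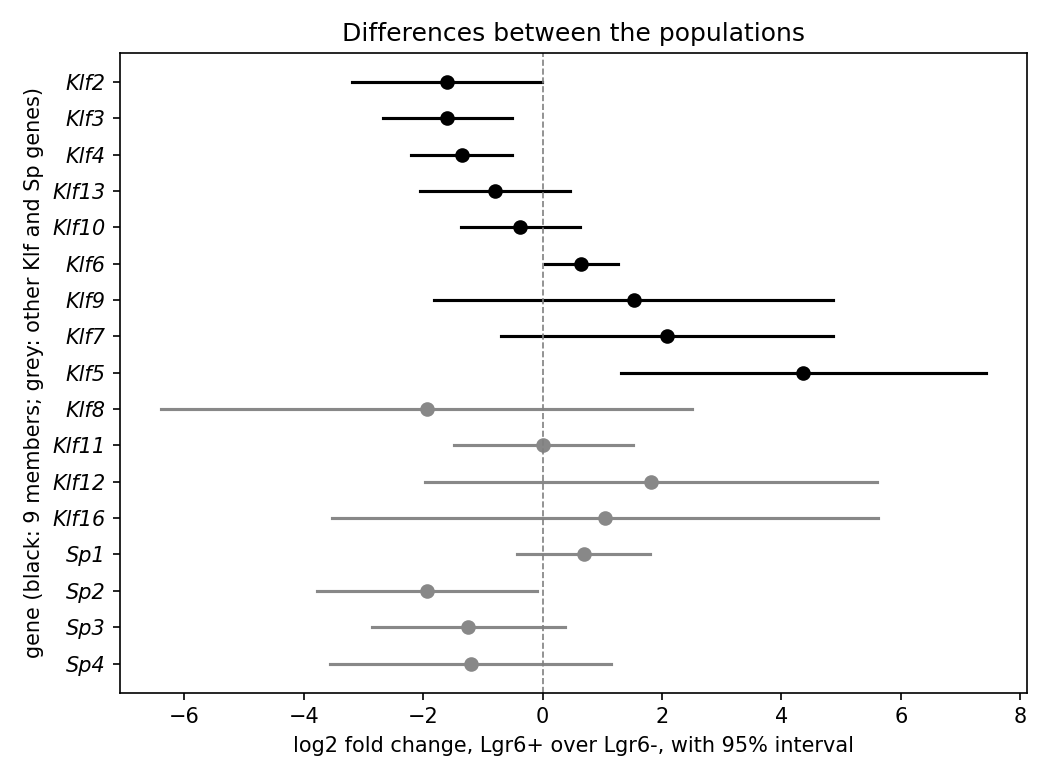
Log2 fold change, Lgr6-positive over Lgr6-negative, with its 95% interval from the quasi-likelihood fit, for the 9 tested members in black and for the other tested Klf and Sp genes in grey. The intervals of Klf2, Klf3, Klf4, Klf5 and Klf6, and of Sp2 among the grey genes, do not reach 0, before adjustment over 11661 genes.

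The make-up of the family within each library does not depend on the scaling between libraries. Per kilobase of annotated exon, Klf6 held 58.4% and 66.9% of the summed level of the 10 genes in Lgr6-positive libraries and 37.6% and 32.7% in Lgr6-negative libraries. Klf4 held 19.1% and 11.2% against 35.8% and 31.3%. The 2 genes thus had nearly equal shares in Lgr6-negative libraries and unequal ones in Lgr6-positive libraries. The mean share of Klf6 was 62.7% ± 6.01 against 35.1% ± 3.51 (exact two-sided permutation test p = 0.333, the smallest that 2 against 2 libraries allow). The count ratio of Klf6 to Klf4, a pair picked after its values were seen, was 4.41 and 8.59 in Lgr6-positive libraries and 1.515 and 1.502 in Lgr6-negative libraries. The summed level of all 10 genes was 492 and 548 CPM per kilobase against 529 and 665 CPM per kilobase, which lay closer together than the shares of Klf6 and Klf4 did.

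**Figure D3:**
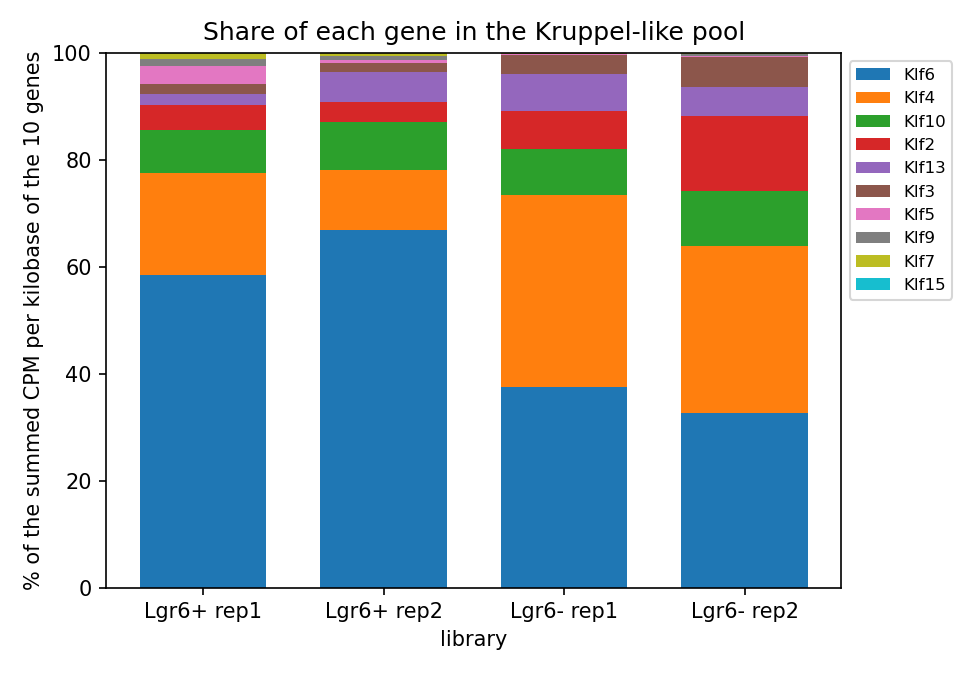
Share of each gene in the summed CPM per kilobase of exon of the 10 genes, 1 bar per library, stacked to 100%. Klf6 takes 58.4% and 66.9% of the Lgr6-positive bars and 37.6% and 32.7% of the Lgr6-negative bars, with Klf4 next in each.

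In order of level per kilobase, Klf6 (327 ± 56.0 CPM per kilobase), Klf4 (77.7 ± 22.9) and Klf10 (44.2 ± 6.66) led in Lgr6-positive cells. Klf2 (21.5 ± 1.93) and Klf13 (20.6 ± 14.5) followed and did not differ beyond their spread, nor did Klf5 (10.1 ± 9.76) and Klf3 (9.49 ± 0.46), or Klf9 (5.08 ± 1.24) and Klf7 (4.15 ± 2.21). Within each Lgr6-positive library Klf9 was above Klf7. In Lgr6-negative cells Klf6 (208 ± 12.7) and Klf4 (199 ± 13.5) led, and their means differed by less than the spread between libraries. Within each library Klf6 was slightly the higher (199 against 189 in replicate 1 and 217 against 208 in replicate 2). Klf2 (65.3 ± 38.8) and Klf10 (57.2 ± 15.9) could not be separated. Klf13 (35.9 ± 0.13) and Klf3 (28.7 ± 12.8) came next, and Klf9 (1.76 ± 1.94), Klf7 (0.98 ± 0.10) and Klf5 (0.49 ± 0.18) were low. The order of Klf2, Klf3, Klf5, Klf10 and Klf13 depended on the length used: with the longest transcript, the level of Klf3 per kilobase was 20.4 in place of 9.49 in Lgr6-positive cells.

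Of the 7 other Klf genes, 4 were tested and 0 were called in edgeR (0 also at an unadjusted p under 0.05, and 0 in DESeq2 and limma-voom), with a median log2 fold change of 0.53. Klf11, a relative of Klf10, was at 72.1 ± 8.46 and 71.5 ± 15.6 CPM (log2 fold change 0.01, 95% interval -1.48 to 1.51). Klf12, a repressor related to Klf3, had 556 and 91 counts against 142 and 2, so that its libraries overlapped, and it passed without Lgr6-negative replicate 1 (6.72, adjusted p = 0.0475, in a range up to 0.995). Klf8 had 8 and 1 counts against 12 and 14, and Klf16 had 33 and 23 against 1 and 18. Klf1, the erythroid member, had no counts in any library, and Klf17 had none either. The 5 red-cell markers all lay higher in Lgr6-positive libraries, and 4 of them passed. Klf14 had 1 count in 1 Lgr6-positive library.

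The Sp genes encode the nearest relatives of the family, which bind GC boxes. Of 9, 4 were tested and 0 were called in edgeR, DESeq2 or limma-voom, with 1 (Sp2, lower) at an unadjusted p under 0.05 and a median of -1.22. Sp1 was the highest of them, at 259 ± 110 against 160 ± 49.1 CPM, and overlapped between populations. Sp2 averaged 22.8 ± 10.9 and 87.2 ± 13.2 CPM, a log2 fold change of -1.93 (SE 0.82, adjusted p = 0.178), and Sp3 and Sp4 also had Lgr6-positive libraries below both Lgr6-negative ones, which makes 3 of the 4 tested Sp genes beside 25.9% of all tested genes. Sp6 had 1 and 72 counts in Lgr6-positive and none in Lgr6-negative libraries, and 86.7% of its exonic bases lie in a gene on the opposite strand. Sp7 had 16 and 0 against 2 and 0 counts, and Sp5, Sp8 and Sp9 had no counts.

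Among genes placed around the family, those of ERK5 and MEF2, the route to Klf2 and Klf4, gave 0 calls in 6 tested, with 2 (Mapk7 and Mef2c, lower) at an unadjusted p under 0.05 and a median of -0.69. Mapk7, which encodes ERK5, had 9 and 15 counts in Lgr6-positive and 96 and 192 in Lgr6-negative libraries (log2 fold change -4.02, SE 1.64, adjusted p = 0.163), and DESeq2 called it (adjusted p = 0.0185, with up to 0.621 elsewhere, and 0 calls of the 6 in limma-voom). Mef2c was at 48.6 ± 3.81 against 132 ± 26.9 CPM (-1.44, adjusted p = 0.172) and Mef2a at 184 ± 84.4 against 307 ± 32.8 CPM (-0.73, adjusted p = 0.390). The MEK5 gene Map2k5 lay the other way, with 108 and 100 against 10 and 12 counts (2.80, adjusted p = 0.389). Lgr6-positive libraries lay below both Lgr6-negative ones for 4 of the 6 genes (Mapk7, Mef2a, Mef2c and Mef2d), as for Klf2 and Klf4, beside 25.9% of all tested genes. Mef2d, picked with its value known, was at -0.40 and changed sign under library-size scaling (0.06).

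Of 5 known targets of Klf2 and Klf4 counted here, 1 was lower, 0 were higher and 4 did not pass, beside 4.57% lower and 4.49% higher of all tested genes. The leukocyte integrin gene Itgb7 had 0 and 1 counts in Lgr6-positive against 447 and 762 in Lgr6-negative libraries, which makes it 1612 times lower (exact 95% counting interval 289 to 63724, edgeR adjusted p = 0.00340). It was called under all 12 alternatives, and leukocyte markers were lower in the same libraries. The cell-cycle inhibitor gene Cdkn1a was at 199.5 ± 61.9 against 550.4 ± 130 CPM (-1.46, SE 0.40, adjusted p = 0.0572) and passed under 7 of 12, among them without Lgr6-positive replicate 2 (0.00152) and without Lgr6-negative replicate 1 (0.0203). Thbd, which encodes thrombomodulin of the vessel wall, was at 323 ± 143 against 119 ± 19.7 CPM (1.45, SE 0.48, adjusted p = 0.0978). It passed under 2 of 12, without Lgr6-positive replicate 1 (0.00721) and under library-size scaling (0.0457). S1pr1 and Nos3, which vessels express, stood at 1.10 (adjusted p = 0.416) and 1.63 (0.666), and Nos3 was picked once its value was known. The 3 genes at positive values lay in the direction of endothelial markers (5 of 5). Epithelial (7 of 7), fibroblast (5 of 5) and red-cell markers (5 of 5) lay in that direction too. The part of any of these cell types was not tested.

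Klf9 and Klf15 respond to glucocorticoids, and of 8 genes of the glucocorticoid receptor and its targets 1 was lower, 0 were higher and 7 did not pass (median log2 fold change -0.20), where 4.57% of all tested genes were lower. The lower gene was Dusp1, a phosphatase that is also an immediate early gene, at 806 ± 85.2 against 2591 ± 237 CPM (-1.68, SE 0.25, adjusted p = 0.00428, called under all 12 alternatives). Tsc22d3 (-1.31, adjusted p = 0.292), Sgk1 (0.89, adjusted p = 0.301) and Cebpd (1.51, adjusted p = 0.314) did not pass and lay in both directions. In the list of TGF-beta receptors and Smads upstream of Klf10, 1 of 7 was lower, against the same 4.57%, and 6 did not pass (median -1.40). That gene was the ligand Tgfb1, at 36.2 ± 6.13 against 229 ± 83.8 CPM (-2.66, SE 0.57, adjusted p = 0.0220), which lost its call without Lgr6-negative replicate 2 (0.123) and under library-size scaling (0.0537). Smad2 was at 127 ± 30.7 against 33.2 ± 29.1 CPM (1.93, adjusted p = 0.178, or 0.0415 without Lgr6-negative replicate 2), Tgfbr1 at -1.48 (0.279, or 0.0352 without Lgr6-positive replicate 1) and Smad7 at -1.53 (adjusted p = 0.398).

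Of the 10 co-regulators bound by Klf proteins 0 were called in edgeR, with 1 at an unadjusted p under 0.05 and a median of 0.02, also with Fhl3 at its bound. That was Fhl3, a partner of Klf3, with 129 and 23 counts in Lgr6-positive and none in Lgr6-negative libraries, at least 18.7-fold higher against 3 counts per library (adjusted p = 0.103), or at least 5.82-fold without Lgr6-positive replicate 1 and 31.6-fold without Lgr6-positive replicate 2. It passed in DESeq2 (0.0230) and in limma-voom (0.0498), in a range up to 0.401. The 2 binding partners of Klf3 lay apart in sign, with Ctbp1 at -1.30 (adjusted p = 0.451) and Ctbp2 at 1.19 (adjusted p = 0.572), and the deacetylase gene Hdac1 was at 1.26 (adjusted p = 0.438). Ctbp2 was picked with its value known, and the acetyltransferase gene Ep300 stood at -0.58 (adjusted p = 0.482). The 6 ubiquitin ligase genes gave 0 calls in edgeR (0 at an unadjusted p under 0.05, and 0 in DESeq2 and limma-voom) and a median of -0.20, led by Vhl (-2.43, adjusted p = 0.248), Siah1a (2.46, 0.251), Wwp1 (1.45, 0.415) and Fbxw7 (-0.70, 0.797). Vhl passed without Lgr6-positive replicate 2 (0.00382). Of 6 amino acid catabolism genes that Klf15 controls in other tissues, 0 were called in edgeR (1, Prodh, at an unadjusted p under 0.05, and 0 in DESeq2 and limma-voom) with a median of 0.88, also with Prodh at its bound, and Klf15 itself was under the floor. Prodh had 11 and 27 counts against none, at least 4.76-fold higher (adjusted p = 0.148) and at least 2.69-fold without Lgr6-positive replicate 2, and Aldh6a1 (2.38, 0.424), Dbt (1.05, 0.702) and Bckdhb (0.71, 0.906) did not pass.

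The reprogramming partners of Klf4 were tested for 1 gene of 4. Myc averaged 162 ± 31.4 and 40.3 ± 4.16 CPM, a log2 fold change of 2.004 (SE 0.58, adjusted p = 0.0664). It lay opposite to Klf4 and passed under 4 of 12 alternatives, among them without Lgr6-positive replicate 1 (0.0394). Pou5f1 had 9 counts in 1 Lgr6-negative library, Sox2 had 4 in 1 Lgr6-positive library, and Nanog had none.

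**Figure D4:**
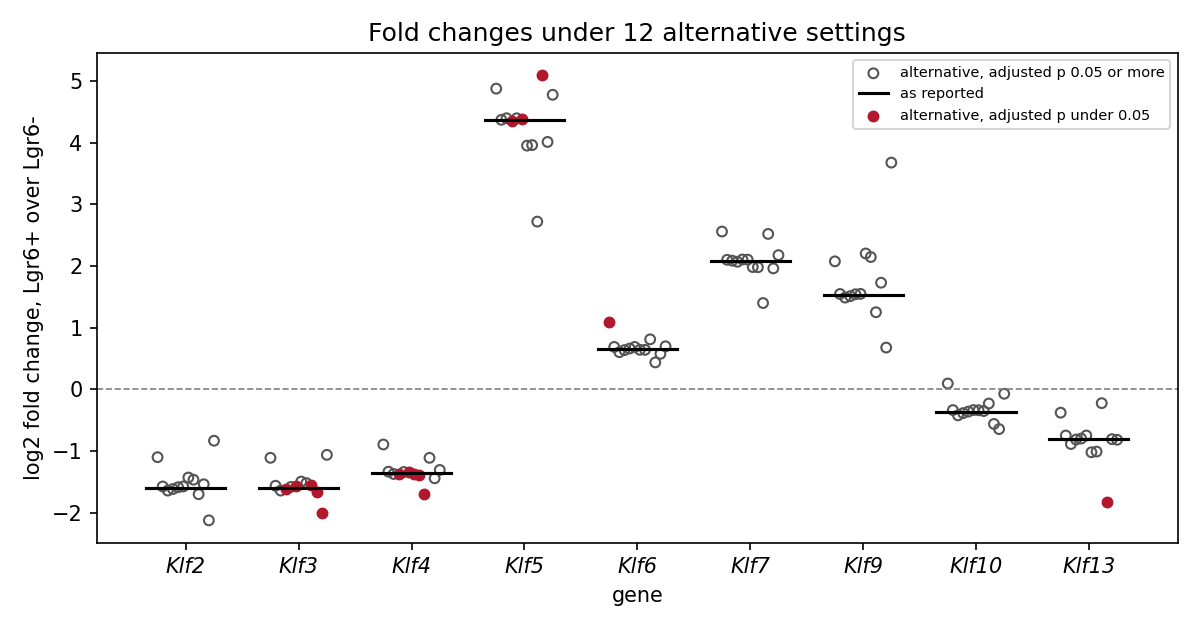
Log2 fold change of the 9 tested members under the 12 alternative settings, as points, beside the reported value, as a line. Filled points have an adjusted p under 0.05. Klf3 and Klf4 passed under 5 settings each, Klf5 under 3, Klf6 and Klf13 under 1 each, and Klf2, Klf7, Klf9 and Klf10 under none.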

How the data were processed

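Expected counts of 24442 genes in 4 libraries, unscaled, are what the authors deposited. Per the submitters' processing notes, the tools were STAR 2.4.2a and RSEM 1.2.22 on mm10. Annotation and strand setting: not given in the sources used here. Expected counts were rounded to whole numbers. Groups and replicate numbers came from the sample titles. In edgeR 4.0.16 (R 4.3.3), filterByExpr (minimum count 10, minimum total 15) kept 11661 genes, and TMM scaling and the quasi-likelihood test (glmQLFit, glmQLFTest) were run on group alone, with p-values adjusted over all of them and a threshold of 0.05. The SE was derived from the log2 fold change and the F statistic, and 95% intervals use the fit's degrees of freedom. PCR copies are not independent molecules, so counting intervals and floors cover counting error alone. Alternatives included DESeq2 1.42.0, limma-voom (limma 3.58.1), other scalings and filters, a replicate block and each library left out. Replicates differed beyond counting noise (chi-square per degree of freedom 100.9 and 86.4). The steps were run on simulated data whose replicates varied less than these libraries did (common dispersion 0.795 here). That run therefore cannot show the error rate or power at the spread of these data. Positions and exon lengths came from GENCODE M21 (GRCm38, also called mm10), matched by symbol. The members and the 10 other gene lists and 6 marker lists were chosen with earlier results of these data known. The text names all members, Lgr6, the other Klf and Sp genes, and up to 4 tested genes with the smallest p-values from each further list. A further gene of the list of Klf2 and Klf4 targets was left out of its counts and is not reported here.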

Additional observations from a re-analysis of the deposited data

How the results depend on the processing

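Over the 12 alternatives, the number of members called higher was 1 under library-size scaling (Klf6) and with no filter or DESeq2 (Klf5), and the number called lower was 2 with no filter and in DESeq2 (Klf3 and Klf4) and 1 in limma-voom (Klf4). Leaving out 1 library gave 0 to 1 members higher and 0 to 2 lower. Of 15897 genes tested with no filter, 967 were higher and 854 lower. Of 11661 genes, 1407 were higher and 997 lower in DESeq2, against 524 and 533 as reported. Under library-size scaling 628 of the 11661 were higher and 327 lower, so that 65.8% of the calls were higher against 49.6% as reported. With 1 library left out, 678 to 956 were higher and 540 to 1030 lower, the most without Lgr6-positive replicate 1. A lone library was then assumed to vary like the other group. A fit with the replicate block called 1 member lower (Klf4) and, of 11661 genes, 678 higher and 662 lower. The numbers share no stated animal or day, and same-numbered deviations correlated at -0.024 across genes. At least 1 alternative changed the sign of 14 of the 57 tested genes in the lists around the members. Among the genes named by the rule, signs changed for Klf10 under library-size scaling (0.10), for Klf11 under upper-quartile scaling (-0.026), with no filter (-0.0022) and when single libraries were left out (-0.21 to 0.24). They also changed with libraries left out for Fbxw7 (-2.13 to 0.34) and Bckdhb (-0.60 to 8.51, the latter fitted against a library at 0). The causes were not tested. The share of Klf6 per kilobase in Lgr6-positive cells was 62.7% over exons and 59.3% over the longest transcript. With 2 libraries per group, intervals of the members spanned from 1.22 to 6.68 on the log2 scale, which limits what could be detected.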
